A study of Mus musculus with 3 samples.

Results

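The cytosolic ribosomal protein genes were followed through single-cell RNA libraries of mouse brain myeloid cells. Members were chosen by symbol: Rps or Rpl followed by a digit, with Rplp0, Rplp1, Rplp2 and Rpsa, and without Rps6k kinases and symbols ending in -ps. The rule took 86 of the 14221 genes listed in any of the 3 count tables, and 85 of them were listed in all 3. The sort for CD11b and CD45 keeps microglia, the macrophages that reside in brain tissue, along with other myeloid cells. The groups were 2 libraries from wild type (WT) mice, labelled adult, and a single library of an MHC class II-deficient mouse, which the label describes as nearly without CD4 T cells. The label of the deficient animal gives neither an age nor the allele. The deficient group is 1 library from 1 mouse, so variation among deficient animals is unknown.

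Ribosomal proteins bind the ribosomal RNAs and make up, with them, the small and the large subunit of the ribosome, which translates messenger RNA into protein. Their messages are short, abundant and mostly begin with a run of pyrimidines, through which mTOR signalling controls their translation. Several have paralogs or processed copies elsewhere in the genome, which makes short reads from one copy hard to assign.

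The tables held 4589, 4815 and 2278 barcodes for WT 1, WT 2 and the deficient library, of which 4340, 4667 and 2257 were retained, with medians of 3384.5, 3338 and 2824 unique molecular identifiers (UMIs) per cell. The deficient library was thus the shallowest per cell. The class II chain genes H2-Aa, H2-Ab1 and H2-Eb1 had 3016, 3831 and 2624 UMIs in WT 1 and were not listed in the deficient table. Microglia-like cells numbered 3908, 4404 and 2204, and all 12 microglial markers had UMIs in each library, with a summed share of 4.01%, 4.23% and 4.03%. The 3 pairs of libraries shared 30, 19 and 13 barcodes.

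In microglia-like cells the members took a larger share of UMIs in the deficient library than in either WT library. The share was 6.44% of 13934085 UMIs in WT 1, 6.65% of 15704224 in WT 2 and 7.72% of 6433271 in the deficient library, with exact Clopper-Pearson 95% intervals of 6.43% to 6.45%, 6.64% to 6.66% and 7.70% to 7.74% that cover counting error only. The deficient value lay 1.17 percentage points above the WT mean of 6.55% ± 0.149 (SD, n = 2 libraries), a ratio of 1.18. With 2 libraries against 1, an exact permutation test cannot give a p below 0.333, so the difference is a description.

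The higher share was spread over many cells. The median cell had 6.13%, 6.39% and 7.31% of its UMIs from members in WT 1, WT 2 and the deficient library. Of the deficient cells, 71.5% lay above 6.25%, the median of all WT cells, against 46.7% of WT 1 cells and 52.9% of WT 2 cells. Deeper cells had a higher member share in all 3 libraries: from the shallowest to the deepest quartile of each library it went from 6.11% to 6.58% in WT 1, from 6.38% to 6.75% in WT 2 and from 6.90% to 8.5% in the deficient library. In each quartile the deficient library was above both WT libraries. The quartiles were cut within each library, the deepest from 4089, 4032 and 3403 UMIs in WT 1, WT 2 and the deficient library. Their depths thus differ between libraries, and the part of depth in the member share was not tested.

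Other measures moved with the library as well. The mitochondrial share was 0.922%, 0.914% and 1.11% in WT 1, WT 2 and deficient microglia-like cells, and Malat1, a nuclear non-coding RNA, took 3.57%, 3.45% and 3.95%. A list of immediate early genes, which respond within minutes to stimuli such as tissue dissociation, took 2.21%, 1.5% and 0.769%. Of 14 neutrophil markers, 14, 13 and 12 had UMIs in these cells, with summed shares of 0.142%, 0.0818% and 0.0254%, and Ly6g was at 0 in the deficient library. With mitochondrial, Malat1 and haemoglobin UMIs left out, the member share was 6.74%, 6.96% and 8.13%. The part of the immediate early genes and of the neutrophil transcripts in the member share was not tested.

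The balance of the subunits was close in all 3 libraries. Genes of the small subunit supplied 42.9%, 42.9% and 42.8% of member UMIs in microglia-like cells of WT 1, WT 2 and the deficient mouse, a difference of -0.110 percentage points between the deficient library and the WT mean. The median log2 fold change, deficient minus WT, was 0.24 over the 33 tested genes of the small subunit and 0.22 over the 51 of the large subunit. Rps19bp1, taken by its symbol, encodes a protein that binds Rps19 and is no ribosomal protein. Its levels were 47.3, 50.5 and 50.8 CPM, the UMIs of a gene scaled to a fixed library total with TMM normalisation.

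UMIs of microglia-like cells were then summed per library and tested across 11864 genes with edgeR's quasi-likelihood test. All residual information, 1 degree of freedom, comes from the spread between the WT libraries, and a deficient library is assumed to vary as they do. Of 85 tested members, 5 were higher in the deficient library at a Benjamini-Hochberg adjusted p under 0.05 and 0 were lower. Over all tested genes, 8.27% were called, 1.66% higher and 6.61% lower. At an unadjusted p under 0.05, 37 members were higher and 0 lower, where 7.43% of all tested genes were higher and 12.2% lower at that threshold. DESeq2 called 8 members higher and 0 lower (0.464% of all genes higher). With cells thinned to 1000 UMIs edgeR called 9 higher (1.36% of all genes), and without the immediate early, heat shock and proliferation clusters it called 21 (2.42%), among them Rps29, Rplp2, Rpl39 and Rps20. Over all retained cells it called 4 (0.935%).

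Small upward shifts were common among the members. The log2 fold change was above 0 for 82 members and below 0 for 3. The median log2 fold change was 0.22, a fold of 1.17, with an interquartile range of 0.17 to 0.28, against a median near 0 (-0.0015) over all tested genes. In 77 members the deficient level lay above both WT libraries, in 2 below both and in 6 between them, where 40.1% of all tested genes lay above and 40.4% below. The members' median was 0.20 without WT 1 and 0.24 without WT 2, while their median log2 ratio of WT 1 over WT 2 was -0.06. Abundant genes outside the rule were also more often above than below 0: of the 108 at or above the members' median level of 849 CPM, 64.8% were above 0, with a median of 0.07.

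**Figure D1:**
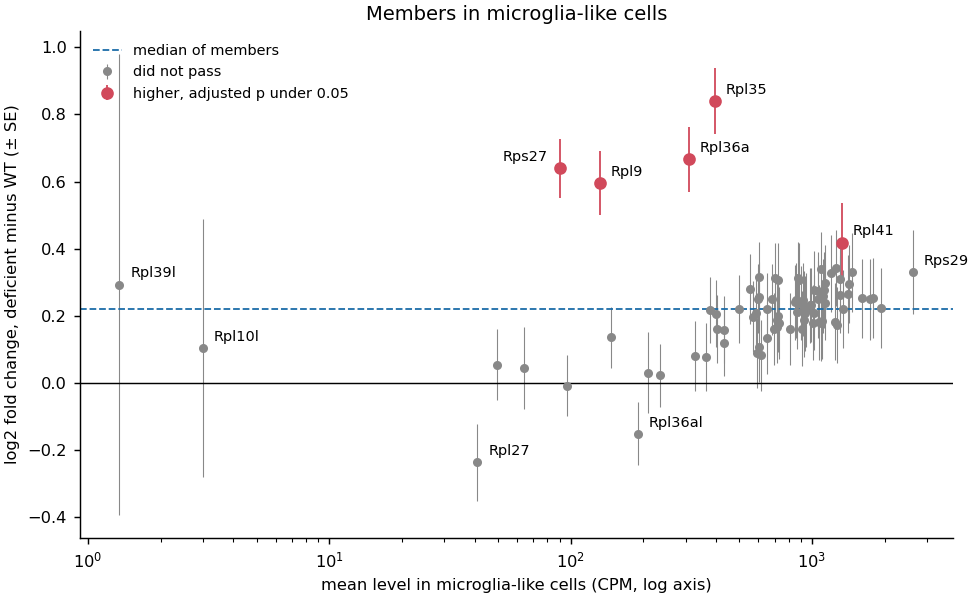
Log2 fold change (deficient minus WT, with its standard error) of the 85 tested members in microglia-like cells against their mean level in CPM on a log axis; the dashed line is the members' median of 0.22. Most members lie in a band above 0, and Rpl35, Rpl36a, Rps27 and Rpl9 stand above it at middle and low levels.

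The most abundant members showed the common shift without passing the test. Rps29, a zinc-binding protein of the small subunit, had 2335 and 2510 CPM in the WT libraries against 3045 in the deficient one, or 0.33 higher on the log2 scale (adjusted p = 0.142, edgeR). Rplp1, a protein of the acidic stalk that contacts the elongation factors, had 1856, 1822 and 2145 CPM. Rpl13 had 1578, 1694 and 1944 CPM, and Rps23, a protein at the decoding centre, had 1480, 1564 and 1813. In each of these 4 the deficient library was above both WT libraries, where 40.1% of all tested genes were. Among the 73 members at 300 CPM or more, log2 fold changes ran from 0.08 to 0.84. Of these, 3 were called higher, where 1.66% of all tested genes were.

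Rpl35, a large-subunit protein beside the exit of the peptide tunnel, had the largest change. Its TMM-normalised level in microglia-like cells was 306 CPM in WT 1, 321 in WT 2 and 561 in deficient cells. The WT libraries lay close together and the deficient one well above them, 0.84 ± 0.098 (SE) higher on the log2 scale (adjusted p = 1.93e-05, edgeR). It was the only member that stood out by its share of member UMIs, at 1.51 times the WT mean where the bound for standing out was 1.5. Rpl36a, the next, had 250, 266 and 409 CPM, 0.67 ± 0.097 (SE) higher on the log2 scale (adjusted p = 0.000178, edgeR), and its share of member UMIs was 1.34 times the WT mean.

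Rps27, a zinc-finger protein of the small subunit, had 78.0 and 74.8 CPM in the WT libraries and 119 in the deficient library, 0.64 ± 0.087 (SE) higher on the log2 scale (adjusted p = 9.98e-05, edgeR). Rpl9 had 120, 106 and 171 CPM, 0.60 ± 0.096 (SE) higher on that scale (adjusted p = 0.000532, edgeR). Rpl41, which encodes a very short basic peptide of the large subunit, had 1131, 1261 and 1598 CPM, 0.42 ± 0.118 (SE) higher (adjusted p = 0.0386, edgeR). For all 3 the deficient library lay above the WT pair, as it did for 40.1% of all tested genes. Over all retained cells Rpl41 was no longer called, at 0.33 (adjusted p = 0.209, edgeR).

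Of the 5 called members, 4 have a near-copy among the listed genes, here a gene with a transcript at least 95% identical to the member's coding sequence over at least 80% of its length. The 4 pairs are shown because the copies differ in so few bases. Sequences are coding strand, 5′ to 3′, from the mm10 (GRCm38) reference with GENCODE models, positions count from 1 at the A of the start codon, and capitals mark the bases that differ. Rpl35 lies at chr2:39001580-39005624 and its copy Gm2000 at chr1:156366040-156366484, with 1 difference (C117T) in 369 coding bases:
Rpl35: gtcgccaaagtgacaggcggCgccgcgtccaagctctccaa
Gm2000: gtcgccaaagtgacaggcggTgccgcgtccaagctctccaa
Rpl36a lies at chrX:134585654-134588062 and Rpl36a-ps1 at chr14:98993870-98994318, with 7 differences in 318 bases, of which C20T and C21T stand in the stretch shown:
Rpl36a: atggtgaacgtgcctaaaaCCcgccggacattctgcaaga
Rpl36a-ps1: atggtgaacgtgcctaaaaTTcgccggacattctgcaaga
Rpl9 lies at chr5:65388364-65391444 and Rpl9-ps6 at chr19:32465865-32466578, with 1 difference (G266A) in 576 bases:
Rpl9: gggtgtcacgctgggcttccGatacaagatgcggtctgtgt
Rpl9-ps6: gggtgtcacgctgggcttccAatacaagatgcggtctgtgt
Rps27, at chr3:90212522-90213651, and Rps27rt, itself a member at chr9:114982366-114982739, are identical over all 252 coding bases, of which the last 41 are:
Rps27 and Rps27rt: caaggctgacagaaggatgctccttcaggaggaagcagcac

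The copies of these 4 members had smaller fold changes than the members they resemble. Gm2000 had 91.6, 96.6 and 119 CPM in WT 1, WT 2 and deficient microglia-like cells, a log2 fold change of 0.34 (adjusted p = 0.0239, edgeR), and Gm10269, the other copy of Rpl35, had 46.0, 47.6 and 57.8 CPM. Rpl36a-ps1 had 56.1, 61.2 and 53.1 CPM. Rpl9-ps6 was more abundant than Rpl9, at 279, 247 and 276 CPM, and Rps27rt more abundant than Rps27, at 303, 341 and 340 CPM. In neither of the last pair did the deficient library stand outside the WT libraries.

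Summing each member with its near-copies, a choice made after the values were seen, kept 3 of the 5 calls. Rpl35 with its copies had 443, 465 and 738 CPM and stayed called at 0.70 (adjusted p = 0.000204, edgeR). Rpl36a with its copies had 317, 341 and 474 CPM and stayed called at 0.53 (adjusted p = 0.00219, edgeR), and Rpl41, which has no near-copy, stayed called. Rpl9 with Rpl9-ps6 came to 0.25 (adjusted p = 0.205, edgeR) and Rps27 with Rps27rt to 0.21 (adjusted p = 0.297, edgeR), close to the members' median. Over all genes so summed, 1.62% were called higher. How reads that match more than one copy were counted is not given in the sources used here.

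**Figure D2:**
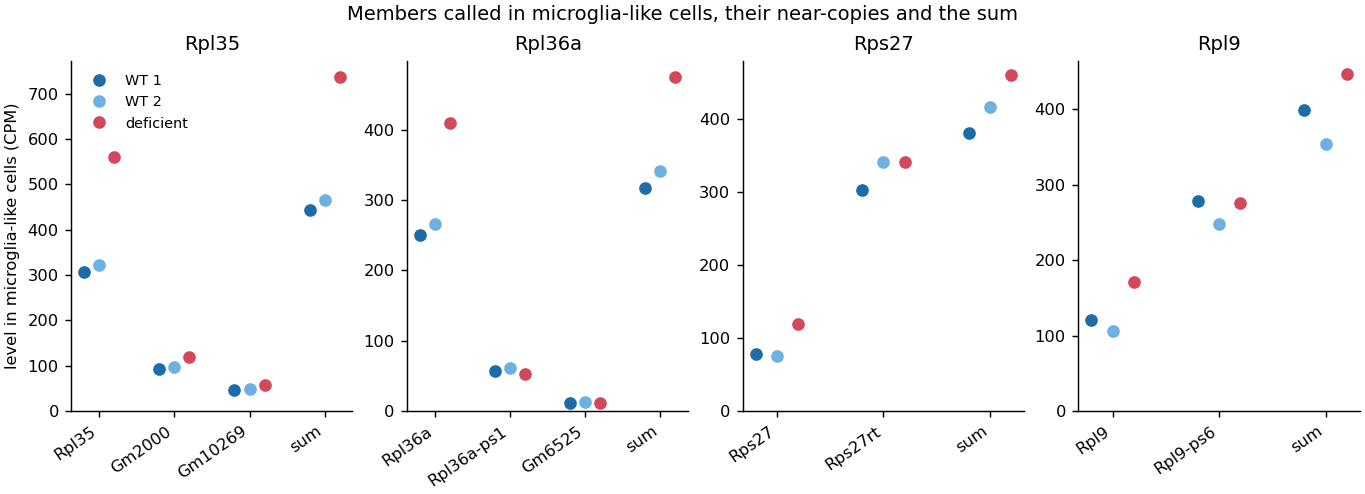
TMM-normalised level in CPM in microglia-like cells of each library (points) for Rpl35, Rpl36a, Rps27 and Rpl9, their near-copies and the sum, on axes from 0. The deficient library stands well apart for Rpl35, Rpl36a and their sums, and less so for the sums of Rps27 and Rpl9, where the copy holds most of the level.

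Near-copies were not limited to called members. Of the 18 tested members with a near-copy, 4 were called higher, and of the 67 without one, 1 was. Over all tested genes, 1.66% were called higher. The median log2 fold changes of the members with and without a near-copy were 0.24 and 0.22. Rpl27 had the lowest fold change of all members, at 43.1, 43.4 and 36.7 CPM and a log2 fold change of -0.24 (adjusted p = 0.268, edgeR), and summed with its copy Rpl27-ps3 it came to 0.07. For Rplp1 the copy moved more than the member: Gm10073 had 89.1, 86.5 and 162 CPM, a log2 fold change of 0.88 (adjusted p = 2.61e-06, edgeR), while the sum with Rplp1 came to 0.26.

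Paralogs of other members lay mostly below the common shift. Rpl22, a large-subunit protein, had 359, 357 and 416 CPM in WT 1, WT 2 and deficient microglia-like cells, whereas its paralog Rpl22l1 had 231, 236 and 238, with log2 fold changes of 0.22 and 0.02. Rpl36al, the autosomal paralog of Rpl36a, had 192, 201 and 177 CPM, below both WT libraries, with a log2 fold change of -0.15 (adjusted p = 0.418, edgeR). Rps27l, a p53-responsive paralog of Rps27, had 139, 146 and 157 CPM, and Rpl7l1, a paralog of Rpl7, had 94.6, 99.8 and 96.7. None of these 4 paralogs passed the test. Rpl39l and Rpl10l, paralogs known mainly from male germ cells, were near the floor, with 8, 30 and 10 UMIs and 46, 40 and 20 UMIs in the 3 libraries.

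The sequence around the transcription start was examined because the members moved together. Among 66 members matched to RefSeq promoters (GRCm38.p6), 10 held CTCTTT between 20 bases before and 15 after the annotated start (15.2%, against 3.02% of 27025 genes). CTTTCC was held by 12 (18.2%, against 3.73%). Matches on the gene's strand and on the opposite strand were both counted. At least 1 of the motifs was present in 27.3% of members and 6.23% of genes. Of the windows printed here with the matches in capitals, Rpl35 holds both, overlapping by 1 base, Rps27 and Rps9 hold 1 each, and that of Rpl41 holds neither:
Rpl35, chr2:39005117-39005151, minus strand: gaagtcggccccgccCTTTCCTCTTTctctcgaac
Rps27, chr3:90213634-90213668, minus strand: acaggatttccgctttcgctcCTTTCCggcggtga
Rps9, chr7:3704021-3704055, plus strand: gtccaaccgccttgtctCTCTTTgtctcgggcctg
Rpl41, chr10:128549154-128549188, minus strand: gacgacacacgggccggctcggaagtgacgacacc
A match is a description of letters in a window. Of the 5 called members, Rpl36a, Rpl9 and Rpl41 hold neither motif there.

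Microglia-like cells were re-clustered with members left out of the genes that defined the clusters, giving 7 clusters. Values are given where a library had at least 50 cells. The largest WT clusters were cluster 1, led by Fam71a, Hspa1b and Rgs1, and cluster 3, led by Rnaset2b and Lamp1, whereas cluster 6, led by Ccr6 and Tagap1, held 1593 of the deficient cells against 37 and 86 WT cells. A cluster mostly of 1 library may be that library rather than a cell state, and library and cluster cannot be told apart there. Rpl35 and Gm10073 were among the 10 leading genes of cluster 6.

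In the 4 clusters with at least 50 cells from each library, the deficient member share was above both WT libraries. Cluster 0, led by Notch2 and Slc39a1, had shares of 6.29%, 6.48% and 6.92% in WT 1, WT 2 and the deficient library, and cluster 3 had 6.31%, 6.49% and 7.80%. Interferon-responsive cells, named for Ifit3, Ifit2 and Irf7, had 7.29%, 7.0% and 8.41%. The immediate early cluster, led by Dusp2, Atf3 and Fosb, had 6.21%, 5.81% and 9.09%, the widest gap of the 4 in this clustering. Its deficient cells had a lower share of immediate early transcripts, 4.76% against 7.52% and 7.18% in WT 1 and WT 2. Which deficient cells it took in changed with the settings, as given below. In cluster 6, WT 2 had 7.29% and the deficient library 7.61%.

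Within a library, interferon-responsive cells had a member share above that of the other microglia-like cells by 0.869, 0.356 and 0.715 percentage points, with a mean of 0.65 ± 0.263 (SD, n = 3 libraries). With the strict cell filter (1000 UMIs, 500 genes and 5% mitochondrial UMIs) these were 0.329, 0.0111 and 0.636, a mean of 0.325. The immediate early cluster had no common direction: the difference was -0.276 and -0.957 percentage points in WT 1 and WT 2 and 1.51 in the deficient library. That deficient value turned to -0.326 with a stricter cell filter and to -0.317 with the first clustering at resolution 0.5, so it rests on which 152 cells the cluster takes in. Proliferating cells, named for Top2a, Mki67 and Cdk1, had 28, 54 and 17 cells, and in WT 2 a share of 8.34%. Their mean difference from the other cells was 1.63 percentage points, but it turned to -0.527 with members allowed among the variable genes and to -0.483 at resolution 0.5. In both of these settings the named cluster held 1 deficient cell, at -2.93 percentage points, while WT 1 with 4 cells was near 0 and WT 2 was 1.34 and 1.48 higher.

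**Figure D3:**
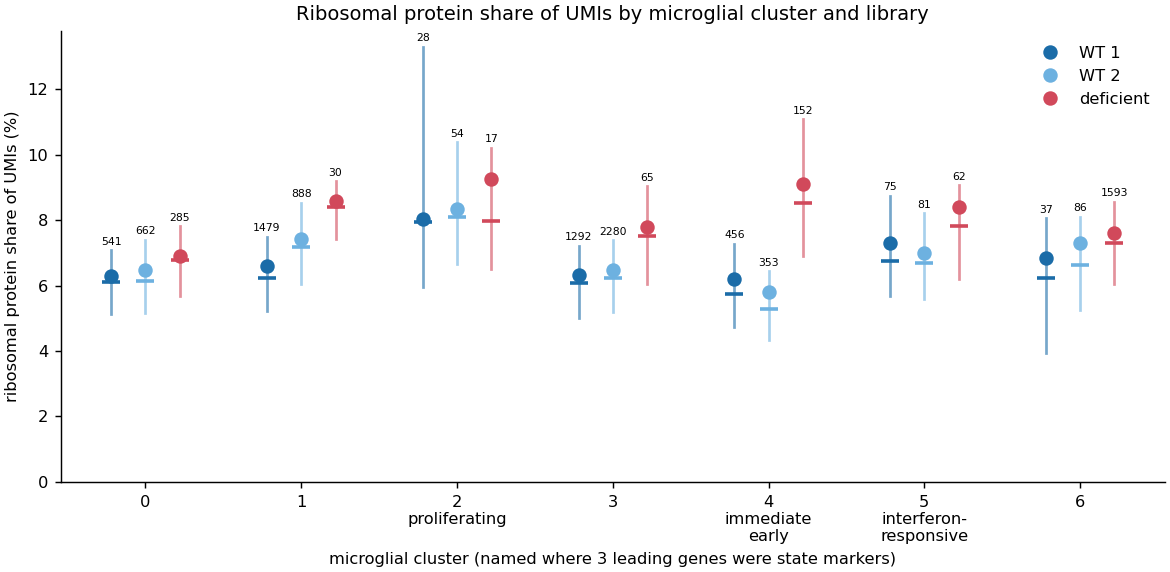
Member share of UMIs by microglial cluster and library; points are shares of summed UMIs, dashes the median cell, lines the interquartile range over cells, and the small numbers the cells behind each. In clusters 0, 3, 4 and 5 the deficient library lies above both WT libraries, most in the immediate early cluster, whose deficient cells changed with the clustering settings.

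Rpl35 was higher in the deficient library in each of these clusters. Its plain CPM, over the UMIs of the cluster, was 332, 327 and 521 in cluster 0 of WT 1, WT 2 and the deficient library, 297, 309 and 578 in cluster 3, 276, 240 and 620 in the immediate early cluster and 291, 282 and 541 in interferon-responsive cells. These cells are part of those in which Rpl35 was called, so the 4 clusters are no separate test of it. In cluster 6, Rpl35 had 364 CPM in WT 2 and 553 in the deficient library, and that deficient value lay within the 521 to 620 of the deficient cells in the other 4 clusters.

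Rpl22 and Rpl22l1 went opposite ways in the immediate early cluster of WT mice. Rpl22l1 had 433 and 524 CPM there in WT 1 and WT 2, against 189 and 175 in cluster 0 and 181 and 194 in cluster 3. Rpl22 had 315 and 253 CPM there, against 378 and 351 in cluster 0 and 368 and 347 in cluster 3. Rpl22 was thus below Rpl22l1 in this cluster in both WT libraries, and was so too under the 3 other clusterings tried after the values were seen. In the deficient library Rpl22l1 was also higher there, at 349 CPM against 170 in cluster 0, while Rpl22 had 459 against 383. That deficient order depended on the cells taken in: Rpl22 had 352 CPM and Rpl22l1 568 in the 48 cells left by the strict filter, 370 and 563 in the 51 cells at resolution 0.5, and 411 and 440 in the 87 cells with members among the variable genes.

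**Figure D4:**
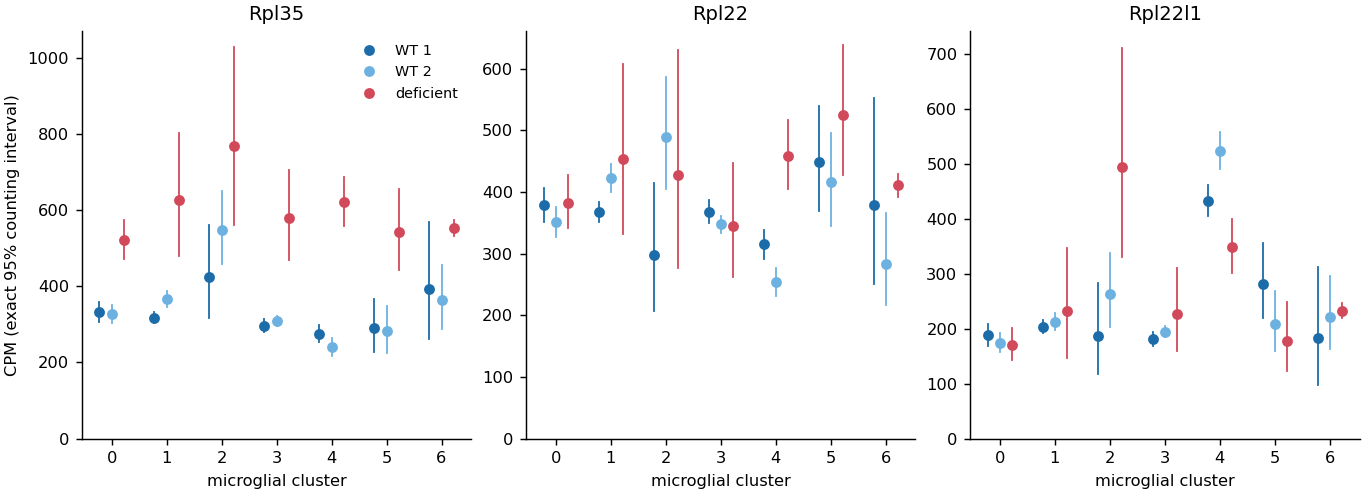
Level of Rpl35, Rpl22 and Rpl22l1 in CPM by microglial cluster (0 to 6, with 2 proliferating, 4 immediate early and 5 interferon-responsive) and library. Lines are exact 95% counting intervals, which cover counting error only. In clusters 0, 3, 4 and 5, which hold at least 50 cells of each library, Rpl35 is highest in the deficient library, and Rpl22l1 peaks in cluster 4 in both WT libraries.

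The member share differed widely between cell classes. Neutrophil-like cells (282 and 135 cells in the WT libraries and 19 in the deficient one) had the lowest member shares, at 3.70%, 3.20% and 2.79%. Cells like border-associated macrophages, which live in the meninges and around vessels (74, 68 and 16 cells), had 10.3%, 12% and 15.5%. Classical monocyte-like cells (43, 30 and 4) had 16.3%, 17.7% and 16.1%, and non-classical monocyte-like cells (11, 12 and 14) had 14.0%, 15.3% and 18.1%. By median cell the non-classical values were 16.1%, 17.8% and 16.8%, with the deficient library between the WT libraries. Shares of so few cells are values of those cells only, and the deficient classes other than microglia rest on 19 cells or fewer.

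Within each library the order of the larger classes was the same. The share of neutrophil-like minus microglia-like cells was -2.74, -3.45 and -4.93 percentage points, a mean of -3.71 ± 1.12 (SD, n = 3 libraries). Border-associated macrophage-like cells lay above them by 3.90, 5.30 and 7.78, a mean of 5.66 ± 1.96 (SD, n = 3 libraries), or 3.44 when the median cell was taken in place of the sum. H2-Aa, H2-Ab1 and H2-Eb1, which the deficient table does not list, were among the leading genes of this class. Class II genes were used neither to form the clusters nor to name the class.

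**Figure D5:**
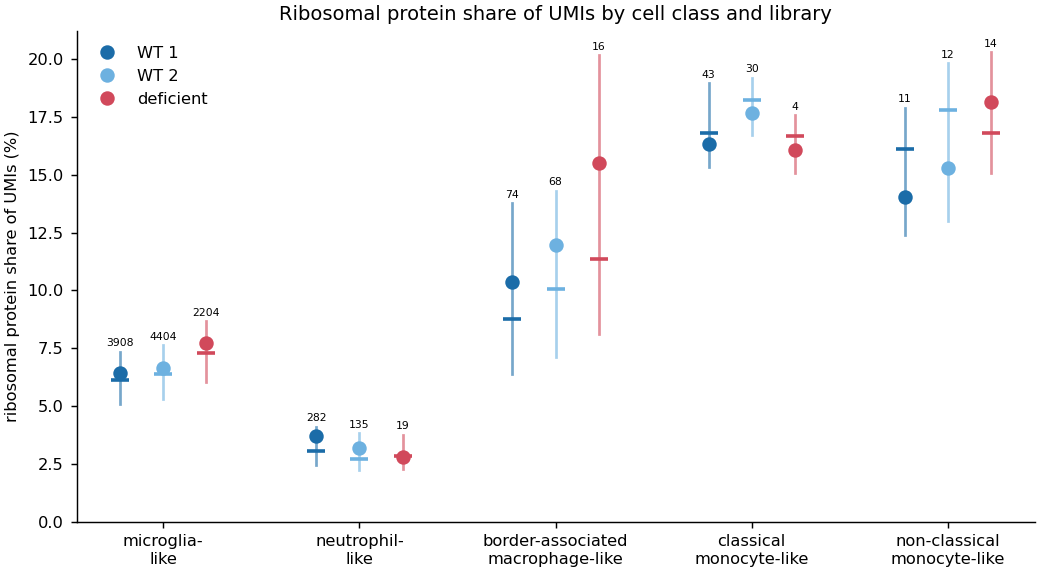
Member share of UMIs by cell class and library; points are shares of summed UMIs, dashes the median cell, lines the interquartile range over cells, and the small numbers the cells behind each. Neutrophil-like cells lie lowest, near 3%, and the monocyte-like classes highest.

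Neutrophil-like cells also had another make-up of member transcripts. Genes of the small subunit supplied 47.2%, 47.2% and 48.8% of their member UMIs. Non-classical monocyte-like cells were similar, at 47.2%, 47.5% and 47.5%. Classical monocyte-like cells (45.1%, 44.9% and 45.8%) and border-associated macrophage-like cells (44.7%, 44.7% and 45.1%) also lay above microglia-like cells. For the 79 members with at least 100 UMIs in neutrophil-like cells, the share of member UMIs was divided by that in microglia-like cells. This ratio was above 1 in all 3 libraries for 22 and below 1 in all 3 for 43. Rps27a, which encodes a ribosomal protein fused to ubiquitin, had ratios of 3.11, 2.93 and 3.97, and its level of 2086, 1727 and 1940 CPM was higher than the 1166, 1227 and 1350 CPM of microglia-like cells even though members as a whole were lower. Rps9, a small-subunit protein, had ratios of 2.15, 2.33 and 4.33. These were the 2 of the 79 at 2-fold or more in every library.

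At the other end, 4 of the 79 had a ratio of 0.5 or less in every library. Rpl3, a large-subunit protein next to the peptidyl transferase centre, had 169 and 162 CPM in neutrophil-like cells of WT 1 and WT 2, against 850 and 908 in microglia-like cells, and 1 UMI in the 19 deficient cells. These 4 were Rpl3, Rpl10a, Rplp1 and Rpl12, the last with 120 and 49 UMIs in WT 1 and WT 2 and 0 in the deficient cells. Rpl10a had ratios of 0.345, 0.346 and 0.350 and Rplp1 of 0.495, 0.376 and 0.311. Rps20, a small-subunit protein, had ratios of 0.628 and 0.734 in WT 1 and WT 2 and 1 UMI in the deficient cells. Rpl3l, a paralog of Rpl3 known from striated muscle, is the member that the deficient table does not list. It had 0 UMIs in microglia-like cells of both WT libraries and 19 and 5 UMIs in their neutrophil-like cells, or 16.9 and 8.72 CPM.

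Border-associated macrophage-like cells kept a make-up closer to that of microglia-like cells. Over the 79 members with at least 100 UMIs in this class, the ratio was above 1 in all 3 libraries for 25 and below 1 for 25, and 0 reached 2-fold or 0.5 in all 3. Rpsa, a small-subunit protein also known as the laminin receptor, had ratios of 1.32, 1.49 and 1.63, and Rps18 of 1.32, 1.29 and 1.33. Rplp1 had ratios of 0.682, 0.706 and 0.586, Rpl21 of 0.745, 0.707 and 0.715, and Rpl36al of 0.773, 0.788 and 0.719. Rplp1 was thus a smaller part of member UMIs in both of these classes than in microglia-like cells.

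Rpl35 was lowest in neutrophil-like and highest in monocyte-like cells of the WT libraries. Over the UMIs of the class, it had 123 and 94.2 CPM in neutrophil-like cells of WT 1 and WT 2, 308 and 320 in microglia-like cells, 529 and 613 in border-associated macrophage-like cells, 849 and 1069 in classical and 919 and 829 in non-classical monocyte-like cells. The order of the monocyte-like classes differed between WT 1 and WT 2. Members as a whole were likewise lowest in neutrophil-like and highest in monocyte-like cells of these libraries. As a part of member UMIs, Rpl35 had ratios to microglia-like cells of 0.695 and 0.612 in neutrophil-like cells. In border-associated macrophage-like cells these ratios of Rpl35 were 1.07 and 1.07. In the deficient library Rpl35 had 1383 CPM in the 16 border-associated macrophage-like cells, with a counting interval of 1108 to 1706, and 4 UMIs in the neutrophil-like cells.

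Other genes of translation were read from lists, whose difference from the members was not tested. Among ribosomal proteins outside the symbol rule, 0 were called higher. Fau, a ubiquitin-like fusion with Rps30, had 1909, 1938 and 2230 CPM in WT 1, WT 2 and deficient microglia-like cells, a log2 fold change of 0.21 (adjusted p = 0.362, edgeR), near the members' median. Rack1, which sits on the small subunit, came to 0.13.

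Of 9 translation elongation genes, 0 were called in either direction, with a list median of 0.10. Eef1a1, which brings transfer RNAs to the ribosome, had 1929, 1806 and 1856 CPM and a log2 fold change of -0.01, and Tpt1, whose message also starts with a pyrimidine run, came to 0.07. Of 29 initiation genes, 0 were called higher and 2 lower, with a median of 0.03. Among them Eif3f, a subunit of initiation factor 3, had 202, 226 and 153 CPM and fell by 0.49 (adjusted p = 0.00514, edgeR). Eif5, which triggers hydrolysis of the GTP bound by factor 2, fell by 0.47 (adjusted p = 0.00589, edgeR), a call lost without the immediate early, heat shock and proliferation clusters (adjusted p = 0.398, edgeR). The abundant Eif1 and Eif4a1 had log2 fold changes of -0.13 and -0.09 and were not called.

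Of 25 genes of ribosome assembly and the nucleolus, 1 was called higher and 1 lower, with a median of 0.05. The nucleolar proteins Npm1 and Ncl came to 0.02 and -0.15, without a call. Rrs1, needed to build the large subunit, fell by 0.54 (adjusted p = 0.0313, edgeR), a call lost with limma voom (adjusted p = 0.0800) and over all retained cells (adjusted p = 0.0934, edgeR). Nop10, a small protein of the particles that modify ribosomal RNA, rose by 0.40 (adjusted p = 0.00790, edgeR), which neither DESeq2 (adjusted p = 0.211) nor edgeR over all retained cells (adjusted p = 0.0592) called. Of 77 tested mitochondrial ribosomal protein genes, 1 was higher and 2 lower, with a median of 0.03. Mrps30 fell by 0.87 (adjusted p = 0.000630, edgeR), Mrps6 by 0.84 (adjusted p = 0.00174, edgeR), and Mrpl52 rose by 0.40 (adjusted p = 0.0104, edgeR). DESeq2 called neither Mrps6 (adjusted p = 0.0944) nor Mrpl52 (adjusted p = 0.0587), and Mrps6 was also lost without the immediate early, heat shock and proliferation clusters (adjusted p = 0.146, edgeR).

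Of 15 genes of the mTOR pathway and its inhibitors, 1 was called higher and 1 lower, with a median of 0.07. Ddit4, a stress-induced inhibitor of mTOR complex 1, had 14.5, 22.1 and 66.2 CPM, and its log2 fold change was 1.85 (adjusted p = 1.28e-06, edgeR). Eif4ebp2, a repressor of cap-dependent initiation, fell by 0.50 (adjusted p = 0.0148, edgeR), which DESeq2 left uncalled (adjusted p = 0.403). Rheb, which activates the complex, and Rptor, its scaffold, came to -0.01 and -0.14 without a call. Ddit4 was also among the leading genes of cluster 6.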

How the data were processed

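The deposited files give 1 table per library of raw UMI counts, genes by cell barcodes, that the authors did not normalise. Brain cells gated on CD11b and CD45 went into 10x Genomics droplet libraries read at the 3′ end, per the labels' protocols. The submitters' processing notes name Cell Ranger 3.0, Seurat 2.2 and mm10; which annotation and filters were applied is not given in the sources used here. Members, gene lists, markers and tests were chosen with earlier results of these data known.

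Retained cells had 500 or more UMIs, 200 or more genes and no more than 10% mitochondrial UMIs; doublets were neither called nor removed. After scaling to 10000 per cell and log transformation, 2000 variable genes gave 30 principal components for Leiden clusters (resolution 1, scanpy 1.11.5 with leidenalg 0.10.2). Members, MHC class II presentation genes and sex-linked genes were left out of the variable genes. A cluster took a class name when 3 or more markers were each in 10% of its cells and their sum was 4-fold that elsewhere. It was called microglia when its microglial marker share was 0.5 or more of the median cell's. 2 clusters (22, 18 and 0 cells) stayed unnamed. Microglia-like cells were clustered again at resolution 0.5, and a state needed 3 or more of its markers among the leading genes.

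Tests used UMIs summed per library and class, because cells of 1 library are no replicates. The main test was edgeR 4.0.16 (TMM, filterByExpr, quasi-likelihood) in R 4.3.3 on genes present in all 3 tables, with Benjamini-Hochberg adjustment at 0.05. Per the design text, each library is 1 mouse. Values that leave out a WT library carry no test. Named genes were Rpl35, called members, the 5 most abundant members, paralogs, members whose share of member UMIs changed 1.5-fold, the 6 members that differed most between neutrophil-like or border-associated macrophage-like and microglia-like cells (at least 100 UMIs), Rps19bp1, members not listed in every table, and for other lists the 2 most abundant genes and the called gene with the largest change. Rpl12, Rpl27, Rplp2, Rpl39, Gm10073, Eif5, Nop10, Mrps6, Eif4ebp2 and the near-copies were named after their values were seen. A few genes named by this rule are left out of the text. Near-copies were found with blastn 2.17.0.

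On simulated counts of this comparison (11864 genes, 5 simulations), the test called 44.8% and 100% of genes raised by 0.5 and 1 on the log2 scale, and 38.2% and 88.2% of genes lowered by as much, with 4.03% of calls false. Alternatives covered normalisation, filters on genes and cells, depth, cell sets, clustering, DESeq2 1.42.0, limma voom (limma 3.58.1) and each WT library left out.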

Additional observations from a re-analysis of the deposited data

How the results depend on the processing

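The count of members called higher in microglia-like cells stayed at 5 in 8 of the alternatives and was 4 over all retained cells. It rose to 8 with DESeq2 (0.464% of all genes called higher), to 9 with cells thinned to 1000 UMIs (1.36%; 60, 61 and 45 shallower cells left out), and to 21 without the immediate early, heat shock and proliferation clusters (2.42%; 1945, 3109 and 2005 cells kept). For WT 1, WT 2 and the deficient library, heat shock genes took 0.428%, 0.502% and 0.680% of UMIs in cluster 1, the heat shock cluster. In all microglia-like cells they took 0.406%, 0.425% and 0.352%. The part of heat shock in the rise to 21 was not tested. The count fell to 3 with near-copies summed, an alternative added after seeing the data, under which Rpl9 and Rps27 lost their calls. In these settings 0 members were called lower. Rpl35 and Rpl36a were called in all 13 tested alternatives, with log2 fold changes of 0.70 to 0.87 and 0.53 to 0.71 over these and the values without 1 WT library. The median member log2 fold change moved to 0.16 over all retained cells, where the neutrophil-like cells of the WT libraries enter. It was 0.20 to 0.24 without 1 WT library.

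Without 1 WT library, the deficient minus WT difference in member share was 1.06 to 1.28 percentage points and that in small-subunit share -0.131 to -0.0891; over all retained cells the latter was -0.342. The neutrophil-like difference was -4.19 to -3.83 and the border-associated macrophage-like one 5.84 to 6.54; the latter was 7.69 at resolution 0.5, where the class also took in cells led by monocyte genes, and 3.44 by median cell. The interferon-responsive difference was 0.536 to 0.792, and 0.325 with the strict cell filter. The immediate early difference, 0.0919 as a mean of 3 libraries, was 0.276 to 0.616 without 1 WT library, -0.579 with the strict filter, -0.0724 with members among the variable genes, -0.505 at resolution 0.5 and -0.101 by median cell. The proliferating difference was 1.59 to 1.64, 1.40 by median cell, -0.527 with members among the variable genes and -0.483 at resolution 0.5; the strict filter left no such cluster. The cause of these moves was not tested.

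No paired analysis was possible because the deficient library carries no replicate number. With cells thinned to 1000 UMIs the median member log2 fold change was 0.22 and that of Rpl35 0.85. With 1 deficient library, library preparation cannot be told apart from genotype, and classes of 19 or fewer deficient cells give counting precision only.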
